A study of Rattus norvegicus with 6 samples.

Results

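The imprinted growth genes are a set of 10 named genes, *H19*, *Meg3*, *Dlk1*, *Mest*, *Peg3*, *Plagl1*, *Grb10*, *Ndn*, *Magel2* and *Zim1*, whose transcription comes mainly from the allele of a single parent and which act on growth before birth. They were looked up by symbol among the 17337 gene names for which mRNA levels were given, and 8 of the 10 were found. *Meg3* was found under its older RefSeq name, RGD1566401, and is described beside the 8 through that row. The mRNA level of *Magel2* was not analysed here.

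The RNA came from neural progenitors grown from the cortices of Sprague Dawley rats at embryonic day 14. The cells were cultured with 20 ng/ml bFGF and 20 ng/ml EGF, the growth factors that keep progenitors dividing, and were taken after their second passage. All cultures were untreated and of 1 condition, so there is no treated or mutant group, and the question that the design allows for these genes is how high their levels were and how far the levels were repeated between independent cultures. Polyadenylated mRNA of 2 cultures, the biological replicates A and B, was sequenced, with 2 technical libraries per culture (A1 and A2, B1 and B2), and the mRNA level is given as FPKM, fragments counted per kilobase of transcript and corrected for library size. The embryos were of either sex and the 2 parental alleles were not separated, so each FPKM is the sum over both alleles.

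In genomic imprinting, DNA methylation laid down differently in the egg and in the sperm decides which parental allele is transcribed. Imprinted genes often lie in clusters around a shared control region, with maternally and paternally expressed genes side by side. In textbook accounts *H19* and *Meg3* are maternally expressed long noncoding RNAs, and their paternally expressed partners are *Igf2*, a growth factor gene, and *Dlk1*, which encodes a membrane protein related to the Notch ligands. *Mest*, *Peg3*, *Plagl1*, *Ndn* and *Magel2* are paternally expressed, *Zim1* is maternally expressed, and *Grb10* is maternally expressed in most tissues and paternally expressed in neurons. In the developing brain *Dlk1* is known for its part in the upkeep of neural stem cells, and *Ndn* and *Magel2* lie in the region lost in Prader-Willi syndrome.

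The promoter sequences show how differently these genes start. RefSeq gives a promoter of 300 bases, from 250 bases before the start of the gene to 50 after it, for 9 of the 10 genes. CG dinucleotides, which are the sites that imprinting methylates, are in capitals in the first 3 sequences below. *Dlk1* and *Grb10* are shown as the promoters richest in CG, and *Ndn* as the promoter of the most highly expressed gene of the set, with far fewer. *Meg3* is shown with TATAAA, the letters of a TATA box, in capitals. All are read 5′ to 3′ on the strand of the gene in the build GRCr8, at chr6:134192347-134192646 on the plus strand for *Dlk1*, chr14:90816338-90816637 on the minus strand for *Grb10*, chr1:125260809-125261108 on the plus strand for *Ndn* and chr6:134273806-134274105 on the plus strand for *Meg3*.
Dlk1: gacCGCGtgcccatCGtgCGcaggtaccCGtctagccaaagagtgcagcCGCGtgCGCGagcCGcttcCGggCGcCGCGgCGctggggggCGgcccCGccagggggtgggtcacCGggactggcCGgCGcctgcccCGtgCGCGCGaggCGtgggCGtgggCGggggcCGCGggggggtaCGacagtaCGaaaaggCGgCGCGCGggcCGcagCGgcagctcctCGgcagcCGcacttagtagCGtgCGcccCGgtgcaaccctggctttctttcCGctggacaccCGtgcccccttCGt
Grb10: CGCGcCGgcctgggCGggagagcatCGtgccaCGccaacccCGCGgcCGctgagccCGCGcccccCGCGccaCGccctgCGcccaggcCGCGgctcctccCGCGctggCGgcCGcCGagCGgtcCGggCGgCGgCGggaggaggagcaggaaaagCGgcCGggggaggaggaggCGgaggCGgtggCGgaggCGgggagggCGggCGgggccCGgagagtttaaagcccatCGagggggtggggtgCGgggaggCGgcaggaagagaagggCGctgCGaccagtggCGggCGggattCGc
Ndn: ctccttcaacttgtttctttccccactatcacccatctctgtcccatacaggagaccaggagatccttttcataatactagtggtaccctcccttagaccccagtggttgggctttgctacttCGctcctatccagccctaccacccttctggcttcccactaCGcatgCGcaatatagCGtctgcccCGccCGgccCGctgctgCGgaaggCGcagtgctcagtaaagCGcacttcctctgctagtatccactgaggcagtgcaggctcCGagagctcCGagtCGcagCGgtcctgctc
Meg3: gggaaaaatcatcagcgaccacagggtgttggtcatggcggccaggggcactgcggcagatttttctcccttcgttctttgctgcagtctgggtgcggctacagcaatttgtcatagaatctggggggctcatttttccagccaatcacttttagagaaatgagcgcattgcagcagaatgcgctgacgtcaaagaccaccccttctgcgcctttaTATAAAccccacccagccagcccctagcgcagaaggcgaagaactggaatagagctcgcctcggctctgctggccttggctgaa

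The promoter of *Dlk1* held 45 CG dinucleotides and that of *Grb10* 44, more than 98.3% and 98.1% of the 33469 RefSeq promoters of this length, for which the median was 7. *Plagl1* had 29, *Zim1* 21, *Mest* 18, *Peg3* 16, *Ndn* 14, *Meg3* 13 and *Magel2* 12, so that each of the 9 promoters lay above the median. TATAAA was searched on both strands and was found in *Meg3*, where it begins 34 bases before the start and overlaps a match on the other strand, and in *Magel2*, which had 2 matches on the strand of the gene. Of all promoters of this length, 14.2% held it. These are matches of letters and describe the reference sequence, not methylation in these cells, which was not measured.

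All 8 genes listed by symbol were transcribed at a mean of at least 1 FPKM, with a median of 45.8 FPKM, against 16.56 FPKM for all 10481 genes that reached this level. The distance between the medians came from replicate B, where they were 48.4 and 16.4 FPKM, while in replicate A they were 17.5 and 16.3 FPKM. The mean over the biological replicates was highest for *Ndn* (138.5 ± 5.53 FPKM, SD, n = 2), followed by *Dlk1* (80.7 ± 70.7 FPKM), *H19* (77.3 ± 80.9 FPKM) and *Peg3* (67.6 ± 5.29 FPKM). *Mest* (23.9 ± 12.7 FPKM), *Grb10* (16.8 ± 15.0 FPKM), *Plagl1* (6.13 ± 3.94 FPKM) and *Zim1* (3.17 ± 1.77 FPKM) were lower. *Meg3*, by its older name, had 69.6 ± 50.6 FPKM. Of the neighbours in the order of the 8 genes, *Peg3* and *Mest* were farther apart than the SD of each, and the others were not. The order itself changed with the culture. In replicate A *Ndn* and *Peg3* stood above *Meg3*, *Dlk1* and *H19*, while in replicate B *H19* and *Dlk1* were within 4 FPKM of *Ndn* and *Peg3* stood below *Meg3*.

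**Figure D1:**
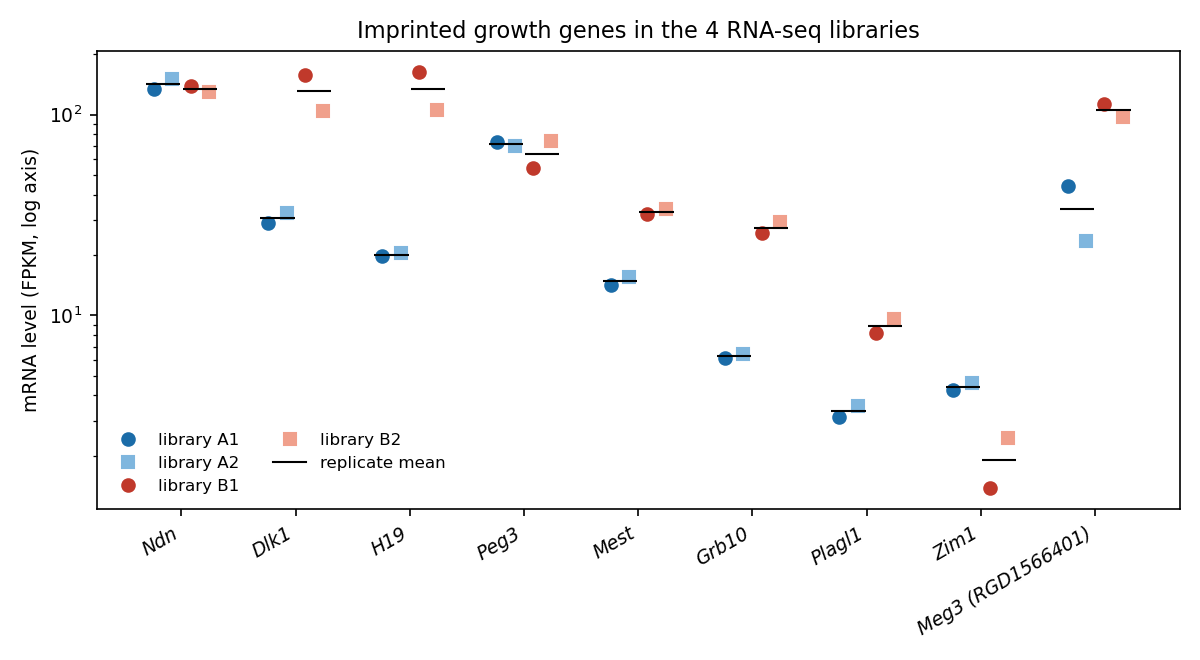
mRNA level of the 8 genes and *Meg3* (RGD1566401) in each library, in FPKM on a log axis, with replicate A in blue, replicate B in red and a line at the mean of each replicate. The libraries of B lie above those of A for *H19*, *Dlk1*, *Meg3*, *Mest*, *Grb10* and *Plagl1* and below them for *Zim1*, and those of *Ndn* and *Peg3* overlap.

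Between the cultures, 5 of the 8 genes (62.5%) were higher in replicate B and 0 were higher in replicate A, while 3 passed in neither direction. A gene was counted here when its mean was at least 1 FPKM, the replicate means differed by at least 1 on the log2(FPKM + 1) scale and the libraries of A did not overlap those of B. By the same rule 4.78% of the 10481 genes tested, those with a mean that reached 1 FPKM, were higher in B and 1.42% were higher in A. The median difference, B minus A, was 1.14 on this log2 scale over the 8 genes and -0.03 over all genes tested. With *Meg3* by its older name, 6 of 9 were higher in B. Each side of the comparison is 1 culture, so no p-value was computed, and the counts describe these 2 cultures. The library B2 was sequenced at less depth than the others, with a coverage of 6.83 per FPKM against 22.7 to 24.4. It also differed from B1 in some markers of cell types, as given below. Without B2 the same number, 5 of 8, were higher in B, against 3.67% of the genes tested, and 1 of 8, *Zim1*, was higher in A, against 1.82%. By the same rule 12 of 14 marker genes of mesenchyme and meninges were higher in B as well, and their part in the result was not tested. Between B1 and B2 themselves 2.84% of 10427 genes were past a log2 difference of 1, and 0 of the 8 genes were. The lowest coverage of any of the 8 genes was 16.7 in B2 and 33.6 in the other libraries.

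**Figure D2:**
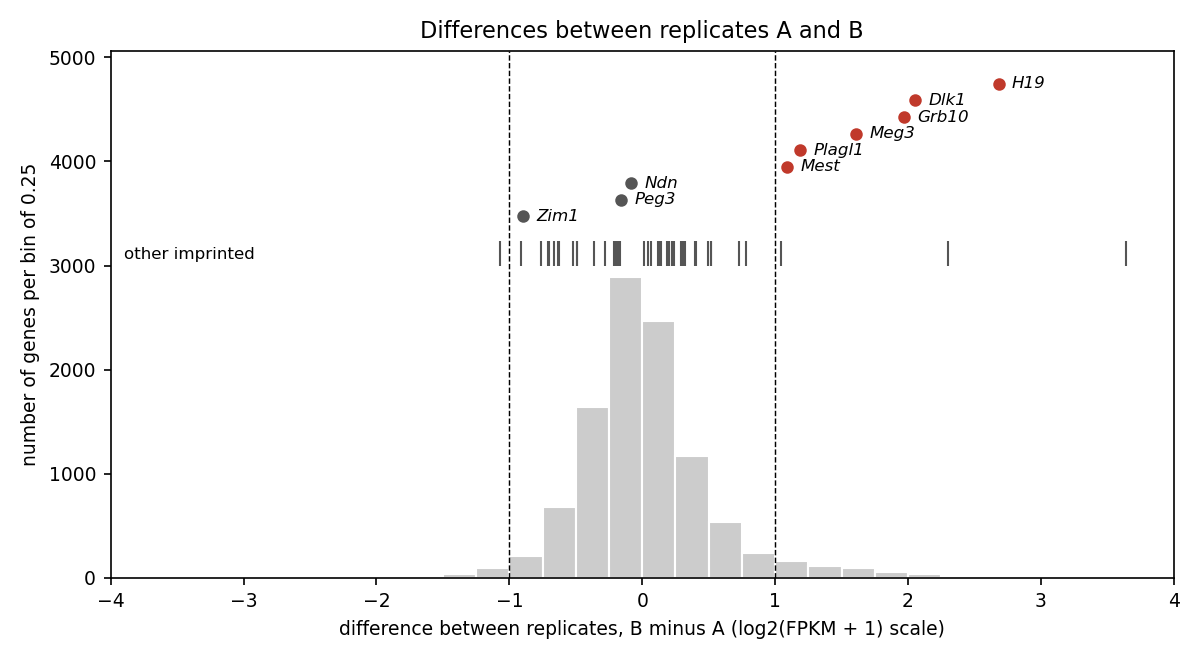
Difference between replicates, B minus A, on the log2(FPKM + 1) scale. Grey bars count the 10481 genes that reached a mean of 1 FPKM, in bins of 0.25, red points are the imprinted growth genes counted as higher in B, dark points the others, ticks are other imprinted genes, and dashed lines stand at -1 and 1; the height of points and ticks carries no value. *H19* lies farthest to the right of the labelled genes at 2.68, and *Ndn* and *Peg3* lie near 0.

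Among the noncoding RNAs, *H19* showed the largest difference of the set. It lies on the minus strand of chromosome 1 (rn6, chr1:215744404-215747080). Its FPKM was 19.9 and 20.4 in libraries A1 and A2 and 163.7 and 105.3 in B1 and B2. Both libraries of B stood far above those of A, which were nearly equal to each other. The mean was 6.69-fold higher in B (134.5 FPKM) than in A (20.1 FPKM), a difference of 2.68 on the log2 scale, and the closest pair of libraries from A and B was 5.17-fold apart, while B1 was 1.56-fold above B2. In rank among all gene names *H19* moved from 4673 in A to 786 in B.

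*H19* is the host transcript of *Mir675*, a microRNA whose 2 mature arms RefSeq gives as follows, with the seed, bases 2 to 8, in capitals. The third sequence is the 5p arm of *Mir770*, and all are shown because the rows of these microRNAs lie inside *H19* and *Meg3* and can be set beside their hosts.
rno-miR-675-5p: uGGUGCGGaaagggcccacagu
rno-miR-675-3p: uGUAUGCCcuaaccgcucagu
rno-miR-770-5p: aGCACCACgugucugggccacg

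The row *Mir675* had 0.0401 FPKM (A1) and 0.0417 (A2) in replicate A and 0.0387 (B1) and 0.131 (B2) in replicate B, so that it stayed below 1 FPKM in each library while its host exceeded 100 FPKM in B1 and B2. Selection for polyA tails was used, which does not measure mature microRNAs. *Mir770*, inside *Meg3*, had 0.608 FPKM in A1 and 1.02 in A2 against 1.68 in B1 and 4.11 in B2, a log2 difference of 1.10 that became 0.56 without B2, and fragments of the host cannot be told apart from those of the microRNA row.

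*Meg3*, a long noncoding RNA of the *Dlk1* cluster, was listed as RGD1566401 on the plus strand of chromosome 6 (rn6, chr6:133658937-133691129). Its FPKM was 44.1 and 23.4 in libraries A1 and A2 and 113.1 and 97.6 in B1 and B2. The libraries of A differed from each other by 1.88-fold, more than for any of the 8 genes, for which A1 and A2 were at most 1.13-fold apart. Both libraries of B still stood above both of A, by at least 2.21-fold, and the mean was 3.12-fold higher in B (105.4 FPKM) than in A (33.8 FPKM), a log2 difference of 1.61.

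*Dlk1*, which encodes the protein of the same cluster that resembles a Notch ligand, lies 75.2 kb before *Meg3* on the same strand (rn6, chr6:133576568-133583748). Its FPKM was 29.0 (A1) and 32.5 (A2) in replicate A and 157.0 (B1) and 104.5 (B2) in replicate B, a pattern close to that of *H19*. Replicate B was higher in each library, with a mean 4.25-fold that of A and a log2 difference of 2.05. The closest libraries of A and B were 3.22-fold apart, and B1 was 1.502-fold above B2. Within a library, the level of *Dlk1* was 1.46 and 1.59 times that of *H19* in A1 and A2 and 0.959 and 0.993 times in B1 and B2. Set against *Meg3*, *Dlk1* was at 0.657 and 1.39 times its level in A1 and A2 and at 1.39 and 1.07 times in B1 and B2, so that the ratio varied more between A1 and A2 than between the libraries of B. Of 58 rows of microRNAs within 500 kb of *Dlk1*, 2 reached a mean of 1 FPKM, *Mir770* (1.86 FPKM) and *Mir3072* (2.84 FPKM), and 34 were listed at 0 in each library.

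The receptors *Notch1*, *Notch2* and *Notch3* were set beside *Dlk1*, with log2 differences of -0.59, -0.14 and -0.72. Of these 3, 0 were counted in either direction, which with so few genes is no result about them, since 4.78% and 1.42% of all genes tested were counted. *Dlk2*, the closest relative of *Dlk1*, had a mean of 0.701 FPKM and was not tested.

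*Grb10* encodes an adaptor protein that binds the insulin and IGF1 receptors and restrains their signalling. It lies on the minus strand of chromosome 14 (rn6, chr14:92021851-92117923). It had an FPKM of 6.11 in A1 and 6.40 in A2 against 25.6 in B1 and 29.2 in B2. The technical libraries lay close together within each culture, and those of B were at least 4.005-fold above those of A. The mean was 4.38-fold higher in B (27.4 FPKM) than in A (6.26 FPKM), with a log2 difference of 1.97.

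For the pathway on which *Grb10* acts, IGF and insulin receptor signalling, 9 of 10 named genes were listed and 8 were tested. The 8 include *Igf2bp1* and *Igf2bp2*, which encode mRNA-binding proteins and not parts of receptor signalling, so the counts cover more than the pathway. There were 2 of 8 higher in B and, without B2, 1 of 8, against 4.78% and 3.67% of all genes tested, and 0 were higher in A. The median log2 difference was 0.32. *Igf1*, a growth factor gene, had 8.66 FPKM and 9.41 in libraries A1 and A2 and 42.0 and 43.3 in B1 and B2, a log2 difference of 2.12. *Irs1*, an adaptor of the receptors, had 1.02, 1.082, 1.79 and 4.48 FPKM, a log2 difference of 1.01 that rests on B2, and without that library only *Igf1* was counted. The receptors passed in neither direction. *Igf1r* had a mean of 2.63 FPKM and a log2 difference of 0.64, and *Insr* a mean of 1.41 FPKM and a log2 difference of 0.08.

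*Mest* encodes a protein of the alpha/beta hydrolase fold and lies on the plus strand of chromosome 4 (rn6, chr4:58052786-58063231). Its FPKM was 14.2 (A1) and 15.6 (A2) in replicate A and 31.9 (B1) and 33.8 (B2) in replicate B. The libraries did not overlap, and the mean was 2.20-fold higher in B (32.9 FPKM) than in A (14.9 FPKM). The log2 difference of 1.09 lay just inside the limit of 1, and for A2 against B1 alone it was 0.99.

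*Plagl1*, also known as *Zac1*, encodes a zinc finger transcription factor that restrains proliferation and acts on other imprinted genes. It lies on the plus strand of chromosome 1 (rn6, chr1:7219587-7259536). It had an FPKM of 3.14 in A1 and 3.55 in A2 against 8.17 in B1 and 9.65 in B2. Both libraries of B were at least 2.30-fold above those of A, and the mean was 2.67-fold higher in B (8.91 FPKM) than in A (3.34 FPKM), a log2 difference of 1.19. Its relatives *Plag1* and *Plagl2* had log2 differences of -0.37 and -0.11.

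*Peg3* and *Zim1*, which lie 7.43 kb apart on the plus strand of chromosome 1, encode zinc finger proteins and are the genes of the set without a higher level in B, together with *Ndn*. *Peg3* (rn6, chr1:70210849-70237450) had 73.2 FPKM and 69.5 in libraries A1 and A2 and 54.1 and 73.7 in B1 and B2. The libraries of A lay between those of B, and the log2 difference of -0.16 was smaller in size than the gap between B1 and B2. *Zim1* (rn6, chr1:70244884-70266709) had 4.23 FPKM (A1) and 4.61 (A2) in replicate A and 1.38 (B1) and 2.45 (B2) in replicate B. Here the libraries of A stood above those of B, and the mean was 2.31-fold higher in A (4.42 FPKM) than in B (1.91 FPKM). Its log2 difference of -0.90 lay just outside the limit, and it became -1.19 without B2 and -1.17 with a pseudocount of 0.1 in place of 1. *Zim1* had the largest gap between B1 and B2 among the 8 genes, at 1.78-fold. Within a library, *Peg3* stood at 17.3 and 15.1 times the level of *Zim1* in A1 and A2 and at 39.3 and 30.1 times in B1 and B2. *Apeg3*, a transcript on the opposite strand that overlaps *Peg3*, was listed at 0 in each library. Whether fragments were assigned by strand is not given in the sources used here.

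*Ndn* encodes necdin, a protein of the MAGE family that restrains growth and is abundant in neurons. It lies on the plus strand of chromosome 1 (rn6, chr1:122981755-122983354). It had an FPKM of 134.4 in A1 and 150.4 in A2 against 139.4 in B1 and 129.7 in B2. The libraries of the cultures overlapped, and the log2 difference was -0.08, the smallest in size of the set. Set beside *Ndn* were 7 other genes, of the type II MAGE family and its partners *Trim27* and *Usp7*, with *Nsmce3* listed under its older name *Ndnl2*. All 7 were tested and 0 were counted in either direction, with a median log2 difference of -0.05. This count is near the 4.78% and 1.42% of all genes tested and so no result about these genes. *Maged1* was the highest of them, at a mean of 341.2 FPKM.

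Imprinted genes within 500 kb were set beside their neighbours. Near *H19*, the growth factor gene *Igf2* lies 81.0 kb away on the same strand and had 19.5 FPKM and 21.1 in libraries A1 and A2 and 130.8 and 399.0 in B1 and B2. It was higher in B by 13.05-fold on the means, with a log2 difference of 3.64. B2 was 3.05-fold above B1, which is the opposite order to that of *H19*, and the log2 difference without B2 was 2.63. The ratio of *H19* to *Igf2* was 1.02 (A1) and 0.964 (A2) in replicate A and 1.25 (B1) and 0.264 (B2) in replicate B, so that the pair kept nearly equal levels in 3 libraries and not in B2. *Mrpl23*, a mitochondrial ribosomal protein gene 35.1 kb from *H19* on the other side, had 125.8, 150.4, 146.0 and 132.4 FPKM in A1, A2, B1 and B2, which overlapped between the cultures. *Lsp1* and *Tnnt3*, 81.9 kb and 60.8 kb away, had log2 differences of 0.78 and 0.73 and were not counted. Of *Ins2*, *Th*, *Ascl2* and *Cd81*, 109.9 kb to 490.6 kb away, *Ascl2* and *Cd81* were not counted either. *Ins2* and *Th* had means of 0.518 and 0.270 FPKM, below the limit of 1 FPKM, and were not tested.

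Near *Plagl1*, *Phactr2*, a gene for a regulator of actin and phosphatase 95.8 kb away, was higher in B as well, with 1.15, 1.22, 3.54 and 3.48 FPKM in A1, A2, B1 and B2 and a log2 difference of 1.04. *Stx11* lay below 1 FPKM. Near *Mest*, *Copg2*, a gene of the vesicle coat that lies 1.16 kb from *Mest* on the opposite strand, had 35.7, 39.0, 30.7 and 35.7 FPKM, with overlap between the cultures, and *Cep41* had a log2 difference of 0.18. *Klf14* and *Cpa4* were below 1 FPKM. *Usp29*, 168.8 kb from *Peg3*, had 3.07, 3.73, 1.81 and 1.88 FPKM and, like *Zim1*, higher values in A without passing the limit, at a log2 difference of -0.63. *Peg12*, 114.5 kb from *Ndn*, had a log2 difference of 0.14. *Ddc* and *Cobl*, the named neighbours of *Grb10*, had means of 0.0913 and 0.559 FPKM.

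**Figure D3:**
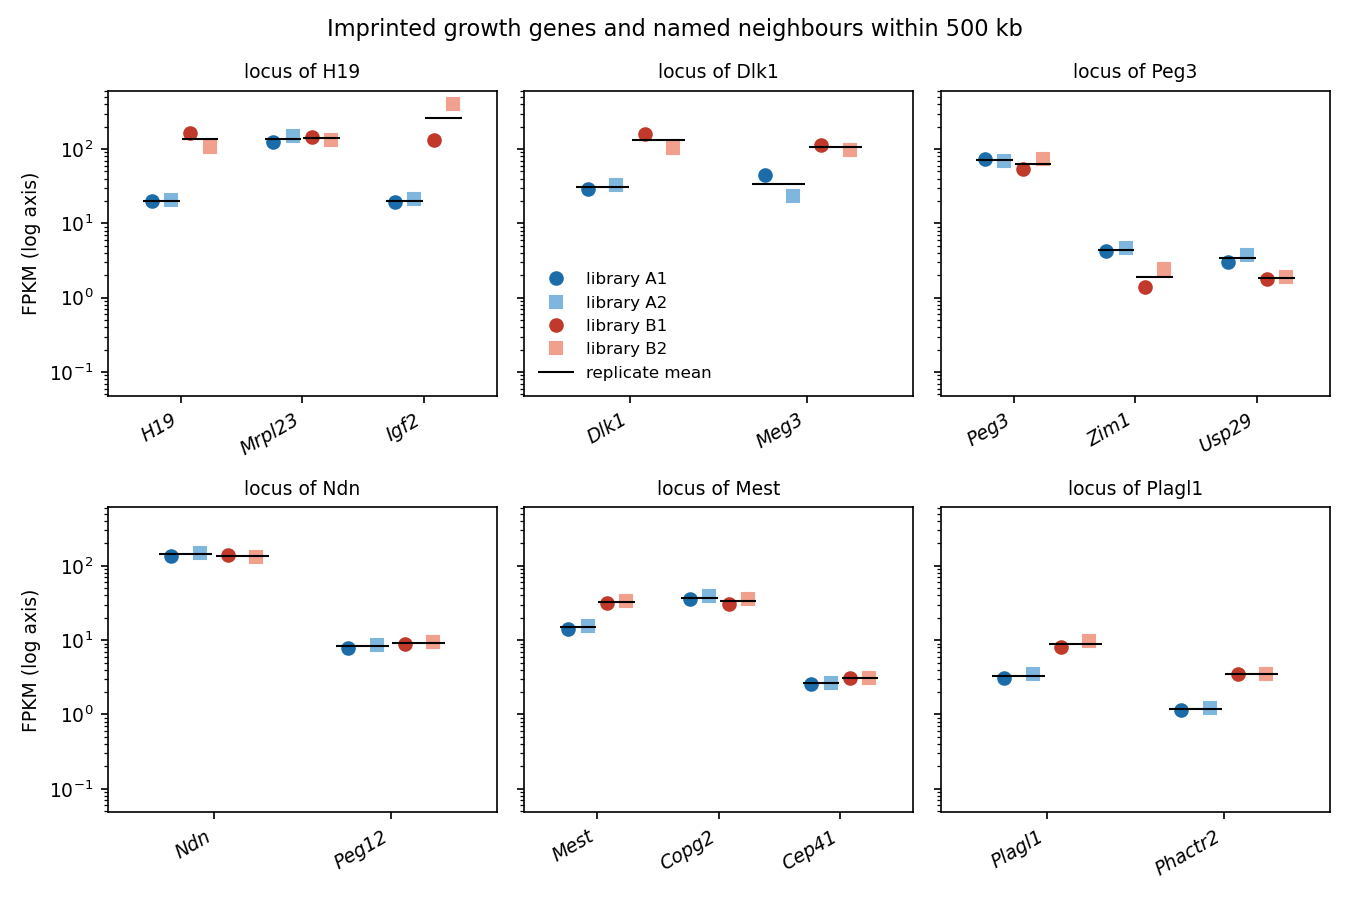
mRNA level in each library, in FPKM on a log axis shared by all panels, at the loci of 6 of the imprinted growth genes, with some of the other named genes within 500 kb. *Igf2*, *Meg3* and *Phactr2* are higher in replicate B (red) like the gene that heads their panel, while *Mrpl23*, *Copg2* and *Peg12* are not counted as differing.

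Other imprinted genes were counted by the same rule. Of 93 other imprinted genes and their neighbours named for comparison, 70 were listed and 44 reached a mean of 1 FPKM. Of the 44, 3 (6.82%) were higher in B, *Igf2*, *Phactr2* and *Dcn*, against 4.78% of all genes tested. Higher in A was 1, *Ppp1r9a*, against 1.42%, and the median log2 difference was 0.12. Both counts are near the shares over all genes and so no result about this list. *Dcn*, which encodes the matrix proteoglycan decorin and is also among the mesenchymal markers, had 41.8, 42.8, 206.6 and 217.4 FPKM in A1, A2, B1 and B2. *Ppp1r9a*, a gene of the neuronal actin scaffold neurabin, had 3.992, 3.87, 1.12 and 1.57 FPKM, a log2 difference of -1.07. The 5 with the highest mean were *Gnas* (1421 ± 340 FPKM, SD, n = 2), a G protein subunit gene, *Nnat* (1345 ± 454 FPKM), *Cd81* (449 ± 107 FPKM), the cell cycle inhibitor gene *Cdkn1c* (176 ± 44.5 FPKM) and *Igf2* (142.6 ± 173 FPKM). The place of *Igf2* rests on B2, since without that library its mean was 75.6 FPKM and *Mrpl23* (142.04 FPKM) took the fifth place. The order of *Gnas* and *Nnat* rests on it too, with 1332 and 1348.5 FPKM without B2. The genes that act on imprinted loci, such as *Ctcf*, *Trim28*, *Zfp57* and the DNA methyltransferases, were listed in all 9 cases and tested in 8, and 0 were counted in either direction, which is near the shares of 4.78% and 1.42% and so no result about them.

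Markers of other cells differed between the cultures together with these genes. Of 14 markers of mesenchymal and meningeal cells, such as the collagen genes *Col1a1* and *Col3a1*, *Dcn* and *Foxc1*, 12 were higher in B and 0 in A. Of all genes tested, 4.78% were higher in B and 1.42% in A. All 14 had a higher mean in B. Without B2, 10 were higher in B. Their summed level was 785.8 FPKM in A1 and 764.3 in A2 against 2809 in B1 and 3653 in B2, which is 4.17-fold higher in B on the means and 3.62-fold for B1 alone. Of 10 neural progenitor markers, 2 were higher in A, *Fabp7* and *Hes5*, against 1.42% of all genes tested, and 0 in B, against 4.78%. The sum of the 10 was 21015 and 23085 FPKM in A1 and A2 and 10033 and 10785 FPKM in B1 and B2. Most of this sum was *Fabp7*, and the other 9 markers summed to 4215 and 4527 FPKM in A1 and A2 and to 3513 and 5299 FPKM in B1 and B2, which overlapped between the cultures. Most of that smaller sum was *Vim*, with 2882, 3171, 2652 and 4458 FPKM in A1, A2, B1 and B2. Of the 9, *Sox2*, *Hes1*, *Hes5*, *Emx2*, *Sox9* and *Notch1* were each lower in both libraries of B, while *Vim*, *Nes* and *Pax6* overlapped. All 10 were detected, and *Sox2*, a defining transcription factor of these cells, had 557.7, 591.7, 406.0 and 356.0 FPKM in A1, A2, B1 and B2. The 5 endothelial and the 5 microglial markers were all below a mean of 1 FPKM, with 1.204 FPKM as the highest value in any library. Of 8 neuronal markers, 5 were tested and 0 were counted, again near the shares over all genes. The marker *Olig1* of the oligodendrocyte lineage was higher in B, and *Ttr* of the choroid plexus and *S100b* of astrocytes were higher in A, the last not without B2. B1 and B2, labelled as technical libraries of 1 culture, also differed from each other in some markers. *Olig1* had 523.1 and 236.9 FPKM in B1 and B2, *Ttr* 26.4 and 3.03, *Foxc1* 29.4 and 115.3 and the mesenchymal marker *Aldh1a2* 71.2 and 368.8. Of the 14 mesenchymal markers, 11 were higher in B2. The coverage of *Aldh1a2* was 1734 and 2520 and that of *Foxc1* 715 and 788. Why B1 and B2 differ was not tested. In bulk RNA, a different number of cells of a type and a different amount of RNA per cell cannot be told apart.

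Each gene was also set against the summed level of the 14 markers within its library. *Grb10* was at 0.778% and 0.838% of the sum in A1 and A2 and at 0.913% and 0.799% in B1 and B2, so that the values of the cultures overlapped. *H19* was at 2.53%, 2.66%, 5.83% and 2.88%, above the values of A in both libraries of B, with B2 close to A. *Dlk1* was at 3.69%, 4.25%, 5.59% and 2.86%, and *Meg3* at 5.62%, 3.07%, 4.03% and 2.67%, with overlap in both cases. *Mest* was at 1.81%, 2.04%, 1.14% and 0.925% and *Plagl1* at 0.399%, 0.464%, 0.291% and 0.264%. A gene whose FPKM differed by less than the sum is lower in B on this scale by the division alone, as these are and as are *Ndn* and *Peg3*. The sum of the neural progenitor markers is mostly *Fabp7* and is lower in B mostly through that gene. Against this sum *Mest*, *Plagl1*, *Ndn* and *Peg3* ran the other way. *Mest* was at 0.0677% and 0.0676% in A1 and A2 and at 0.318% and 0.313% in B1 and B2. *Plagl1* was at 0.0149% and 0.0154% and at 0.0815% and 0.0895%. *Ndn* was at 0.640% and 0.651% and at 1.39% and 1.203%, and *Peg3* at 0.349% and 0.301% and at 0.539% and 0.683%. *Zim1*, whose FPKM was itself lower in B, was at 0.539% and 0.603% of the mesenchymal sum in A1 and A2 and at 0.0490% and 0.0670% in B1 and B2. *Igf2* was at 2.48% and 2.76% of it in the libraries of A and at 4.66% and 10.9% in those of B.

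**Figure D4:**
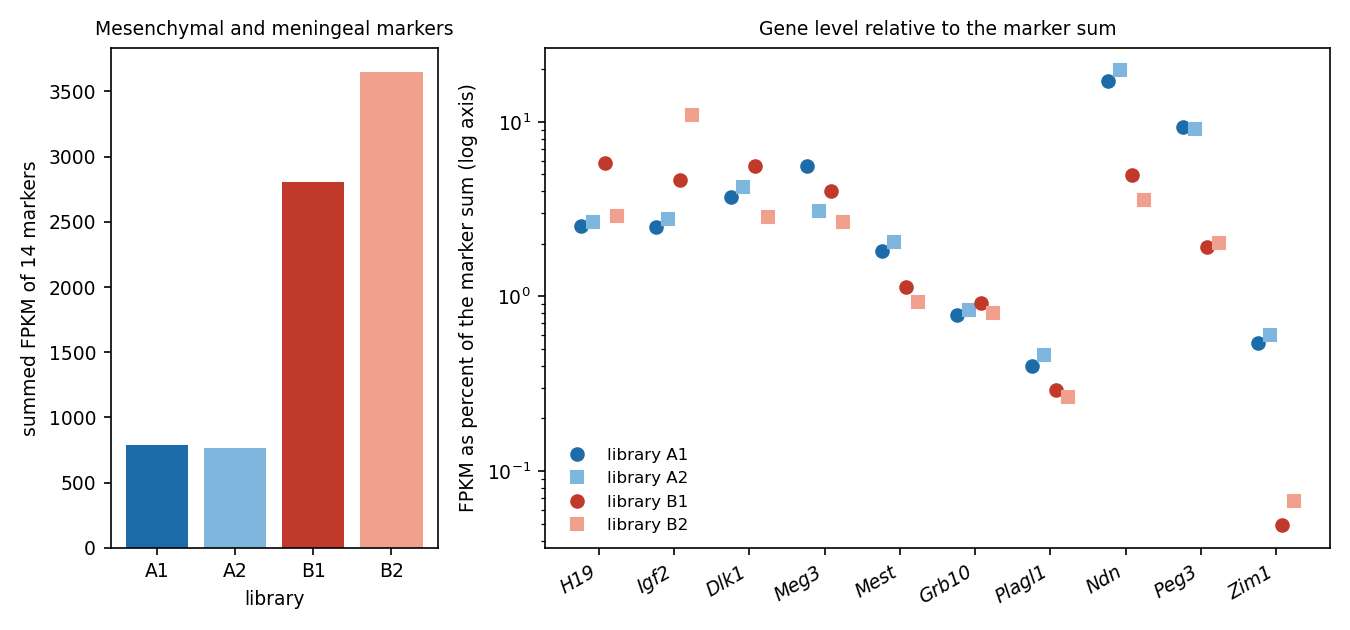
Left, summed FPKM of 14 mesenchymal and meningeal markers in each library, from 764.3 in A2 to 3653 in B2. Right, FPKM of each gene as a percent of that sum in the same library, on a log axis, where *Grb10*, *Dlk1* and *Meg3* overlap between replicates A and B, *Ndn* and *Peg3* are lower in B by the division alone, and *Igf2* is higher in B.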

How the data were processed

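PolyA-selected mRNA of rat neural progenitors was sequenced in 4 libraries, 2 technical libraries for each of the biological replicates A and B, as the sample labels group them. Column names in a gene list of the paper can also be read as pairing A1 with B1 and A2 with B2, and under that reading the replicate means, SDs and B minus A differences given here would not be between biological replicates. Reads were aligned by the authors to rn6 (STAR), and tables in the layout of StringTie were used, whereas Rsubread and DESeq2 are named in the paper's methods for FPKM, so which tool made the deposited FPKM is not settled. Their versions are not given in the sources used here. FPKM, as deposited, is scaled to transcript length and library depth. TPM, as deposited, is scaled to 1000000 per library and served as an alternative. The deposited coverage is a mean read depth that is not scaled, and coverage per FPKM was taken as the measure of depth, which was 22.7 to 24.4 and, in B2, 6.83. Read totals were not used. Start-seq (2 samples) was not analysed here.

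Rows of the same gene name were added up, and FPKM was averaged over technical libraries, and mean ± SD is over n = 2. Differences are log2((B + 1)/(A + 1)), which understates the change of low genes. Genes were counted where the mean reached 1 FPKM, the difference reached 1 in either direction and libraries of A and B did not overlap. With 2 replicates of 1 condition no test was made, and the same rule over all genes gives the background. Named were the 10 genes of the set, rows overlapping them, other imprinted genes within 500 kb, those counted, and the 5 with the highest mean. Genes, lists and rules were chosen with earlier results of these data known. Names were matched through the RefSeq table of GRCr8, from which sequences were also taken, without coordinates being moved between builds. The alternatives were other limits, a pseudocount of 0.1, TPM, scaled libraries, the highest row of a name, single pairs of libraries and replicates left out. Python 3.11.15 with pandas 2.3.3, numpy 2.4.6 and matplotlib 3.10.9 was used.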

Additional observations from a re-analysis of the deposited data

Results flagged for a closer look

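In 23 values with 1 reading per library, the distance from the most extreme library to its closest neighbour was divided by the range of the 4 libraries. A single value, the depth, exceeded the limit that Dixon's test sets for 4 samples: B2 had a coverage of 6.83 per FPKM, where the other libraries had 22.7 to 24.4. About 1 in 20 sets of independent samples would exceed the limit by chance, but technical libraries of the same culture are not independent. None of the FPKM values of the imprinted growth genes exceeded it.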

How the results depend on the processing

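Of the 8 imprinted growth genes, 4 to 6 were counted as differing under each of the 14 alternatives, against 5 as reported, while the share of all genes counted in either direction went from 4.99% (mean limit of 10 FPKM, 4 genes) to 16.5% (log2 limit of 0.58, 6 genes). The sixth was *Zim1*, higher in A, under TPM (-1.04 on the log2 scale), a pseudocount of 0.1 (-1.17), without B2 (-1.19) and a log2 limit of 0.58, and for B1 against A1 (-1.14) and, with *Mest* lost (0.99), against A2 (-1.24). *Meg3* by its older name and the averaging of log2 values (5 genes, 6.15% of all genes) were added after the data were seen. Other imprinted genes counted as differing went from 4 (3 higher in B, 1 in A) to 2 with a mean limit of 10 FPKM (2 in B, 0 in A) and to 13 at a log2 limit of 0.58, where the balance turned to 5 higher in B and 8 in A. *Peg3* changed sign for A1 against B2 (0.0089) and A2 against B2 (0.0836), and *Ndn* for A1 against B1 (0.0521). The median of the 8 genes was 76.8 in TPM, which is a different unit from FPKM. In FPKM it ranged from 17.5 without replicate B to 48.4 without replicate A, which are the medians of A and of B alone. The cause of the differences between the cultures was not tested. No paired analysis was possible because all RNA-seq libraries belong to 1 condition.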
